A study of Mus musculus with 8 samples.

Results

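The measurement described here is the difference between a pair of follicular changes, (TFR minus Treg) minus (TFH minus Tnaive), that is the change in Foxp3-positive CD4 T cells minus the change in Foxp3-negative CD4 T cells. A change, rise or fall here compares separately sorted cell types, as no cell was followed between them. It was taken as log2 values within d12 and within d25, and rests on 8 of the 8 arrays of the series, 4 in the Foxp3-negative arm and 4 in the Foxp3-positive arm. Of 29924 gene names on the array, 15762 were tested. All cells came from peripheral lymph nodes (pLN) of B6.Cg-Foxp3<tm1Mal> mice, whose Foxp3-expressing cells carry GFP, after subcutaneous immunization with the protein antigen KLH in alum. The mice were 8 to 14 weeks old and of mixed gender, 8 to 15 mice were pooled, and 25 ng of RNA went into each array. The sorted cells were Tnaive (GFP-negative, PD1-negative or low, GL7-negative), TFH (GFP-negative, PD1-high, GL7+), Treg (GFP-positive, PD1-negative or low, GL7-negative), and TFR (GFP-positive, PD1-high, GL7+/-), where GL7 is a carbohydrate epitope of germinal center cells. TFH and TFR cells were thus gated differently for GL7, which cannot be told apart from Foxp3 status. Since each cell type was hybridized once per day, the arrays of d12 and d25 serve as replicates. A shift between days common to all cell types was removed. The p-values rest on what remains, the change between days that differs by cell type together with array noise. They do not measure variation between pools of mice at the same day.

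TFH cells help B cells in the germinal center through CD40 ligand, IL-21 and IL-4, and are directed there by the chemokine receptor CXCR5 and the transcription factor BCL6. TFR cells arise from Treg cells, carry part of the same follicular machinery together with Foxp3, and restrain the germinal center response. Both cell types must lose genes of resting T cells that hold them in the T cell zone, such as Ccr7. A difference between the changes can arise where a gene moves in either arm alone, further in one of them, or in opposite directions.

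The sorted cells carried their markers. Foxp3 read 390 and 314 in Tnaive, 79 and 99 in TFH, 39528 and 38897 in Treg, and 30876 and 30906 in TFR, where each pair of values gives the level at d12 and then at d25, as normalized intensity. Summed over 6 follicular markers, levels were 549721 and 711270 in TFH and 245350 and 303586 in TFR, against 42139 to 70897 in the other cells. All 5 T cell markers on the array were well above background on all arrays. The TFH array of d25 stood apart by B cell markers, whose sum over 10 genes was 16099 against 5943 to 9717 elsewhere. Ms4a1 (CD20) read 273 and 2626 and Cd22 5538 and 3722 in TFH, while Pax5 stayed near background on all 8 arrays. H2-Ab1 (MHC class II) read 2699 and 18901 in TFH. Of 6 markers of CD8 T and NK cells, the sum was 45724 and 45794 in TFR against 11107 to 18903 elsewhere. Nkg7 supplied 42203 and 42395 of it. From Treg to TFR, Klrb1c went from 92 and 45 to 861 and 790, Cd8a from 1162 and 1295 to 532 and 612, and Cd8b1 from 3246 and 2801 to 1725 and 1532, and Ncr1 stayed near background. The part of such cells in the results below was not tested, and a difference in cell composition and one in RNA per cell cannot be told apart.

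The change differed between Foxp3-positive and Foxp3-negative cells for 1294 genes, or 8.21% of the genes tested (limma, Benjamini-Hochberg adjusted p below 0.05). Of these, 606 (3.84%) were higher and 688 (4.36%) lower in the Foxp3-positive arm. The arms themselves were large: 7310 genes (46.4%) were called for TFH versus Tnaive and 6214 (39.4%) for TFR versus Treg. Sorted by what each arm did, 454 of the 1294 genes (2.88% of those tested) moved in the same direction in both arms but less in Foxp3-positive cells, and 74 (0.469%) moved further in Foxp3-positive cells. Another 413 (2.62%) were called in the Foxp3-negative arm alone and 215 (1.36%) in the Foxp3-positive arm alone. For 138 genes (0.876%) both arms were called in opposite directions, 59 rising in TFH and falling in TFR and 79 the reverse. No gene was called for the difference without being called in at least 1 arm. The count was 766 without the block of day, 610 with slide in its place, and 434 with no filter on dim probes, 313 of the latter being among the 1294. Lists of lost calls in the paragraphs below cover left-out arrays and the blocks of slide and day. They mostly leave out this filter setting, which ended further calls. Leaving out an array of Tnaive left 345 (d12) or 417 (d25), of Treg 252 or 385, and of TFR 261 or 293. Without a TFH array 945 (d12) or 1046 (d25) genes were called, the latter without the array on which the summed B cell markers were higher, and 742 of these 1046 were among the 1294.

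**Figure D1:**
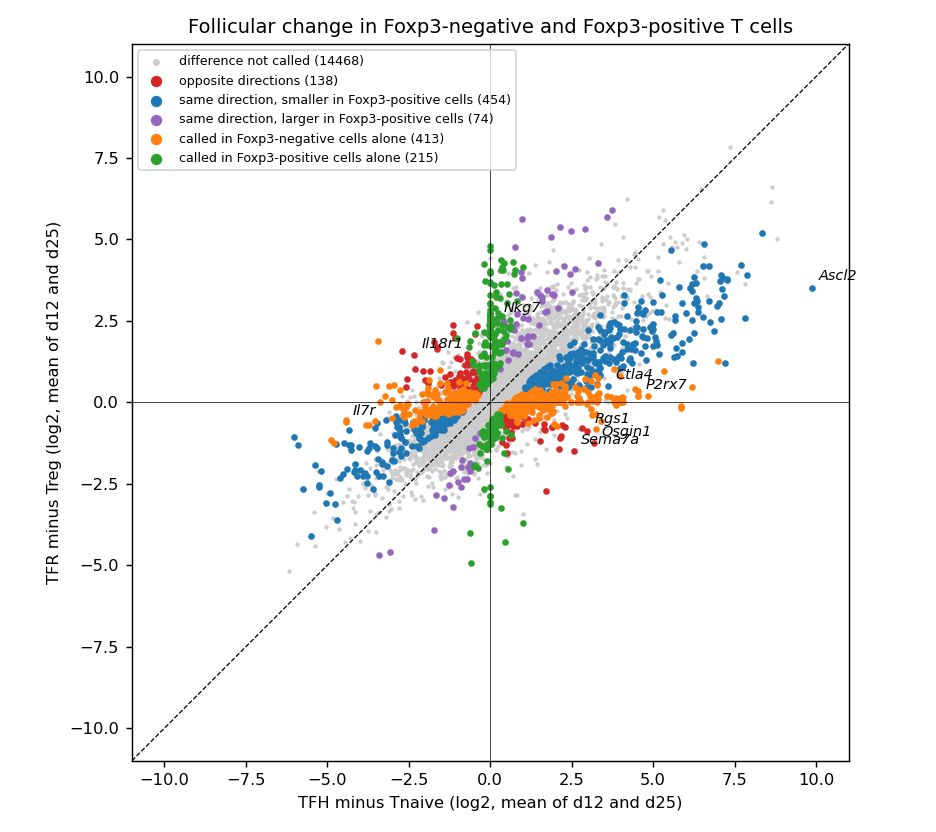
Each point is 1 of the 15762 genes tested. The horizontal axis gives TFH minus Tnaive and the vertical axis TFR minus Treg, both in log2 units as means over d12 and d25, colors give the class of the 1294 called genes, and the dashed line marks equal change. Below the line on the right lie the 307 genes that rose in both arms but less in TFR, such as Ascl2.

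Of the genes that moved in opposite directions, Rgs1, Osgin1, Sema7a and Il18r1 were chosen as examples with these values known, so their values are a description. The 60-base probes that measured them match the positions below in the build of the files (mm9). The first 30 bases of each probe are printed 5′ to 3′ in lower case to identify the transcript stretch that was read.
Rgs1 (chr1:146091992-146092021, minus strand): cccttggataaccagtccaaaagtatatag
Osgin1 (chr8:121970077-121970106, plus strand): gccagctgagtgtccaacttggagggcccc
Sema7a (chr9:57810607-57810636, plus strand): tcccttatctcttctcaatgcactttaata
Il18r1 (chr1:40557541-40557570, plus strand): tgtcacaacagctgtgtgtgaaaacctagc

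Rgs1, which shortens signals of G protein coupled chemokine receptors, read 578 and 671 in Tnaive, 4669 and 5141 in TFH, 20825 and 25991 in Treg, and 11314 and 14426 in TFR. It rose by 2.98 in TFH and fell by 0.86 in TFR on the log2 scale, and the difference was -3.84 (SE 0.13, adjusted p = 0.0026). Even after this fall its level in TFR remained above that in TFH on both days. Osgin1, an oxidative stress-induced inhibitor of growth, read 210 and 181 in Tnaive, 1477 and 2143 in TFH, 1307 and 1172 in Treg, and 379 and 708 in TFR. TFH and Treg were the high cell types on both days and Tnaive and TFR the low ones, with a difference of -4.45 (SE 0.44, adjusted p = 0.0105). Sema7a, a membrane-anchored semaphorin that signals through integrins, read 228 and 164 in Tnaive, 1461 and 895 in TFH, 330 and 420 in Treg, and 207 and 84 in TFR. TFH was highest on both days and the d25 array of TFR lowest, and the difference was -4.06 (SE 0.55, adjusted p = 0.0212), with -3.35 at d12 and -4.77 at d25. The reverse pattern was found for Il18r1, the ligand-binding chain of the IL-18 receptor, which read 3115 and 3479 in Tnaive, 503 and 840 in TFH, 3759 and 4782 in Treg, and 9710 and 14060 in TFR. It fell by 2.34 in TFH and rose by 1.46 in TFR, the difference being 3.80 (SE 0.22, adjusted p = 0.00347), and another probe of the gene gave 3.46. For each of the 4 genes the values of TFH did not overlap those of TFR. As the genes were chosen with these values known, this is a description. The share of all genes without such overlap was not counted. The calls of Rgs1 and Il18r1 held under each of the 18 alternatives that were fitted anew, whereas the following were lost without 1 array: Osgin1 (the Treg d12 array, adjusted p 0.0557), and Sema7a (either Tnaive or TFH or TFR array, adjusted p 0.053 to 0.0881). Slide as a block ended the call for Sema7a (adjusted p 0.0586). Fitting with no filter on dim probes ended that of Osgin1 (adjusted p 0.0749). In all, 2 of the 18 alternatives ended the call of Osgin1 and 8 that of Sema7a. The highest adjusted p of Sema7a was 0.115, under an alternative not named here.

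**Figure D2:**
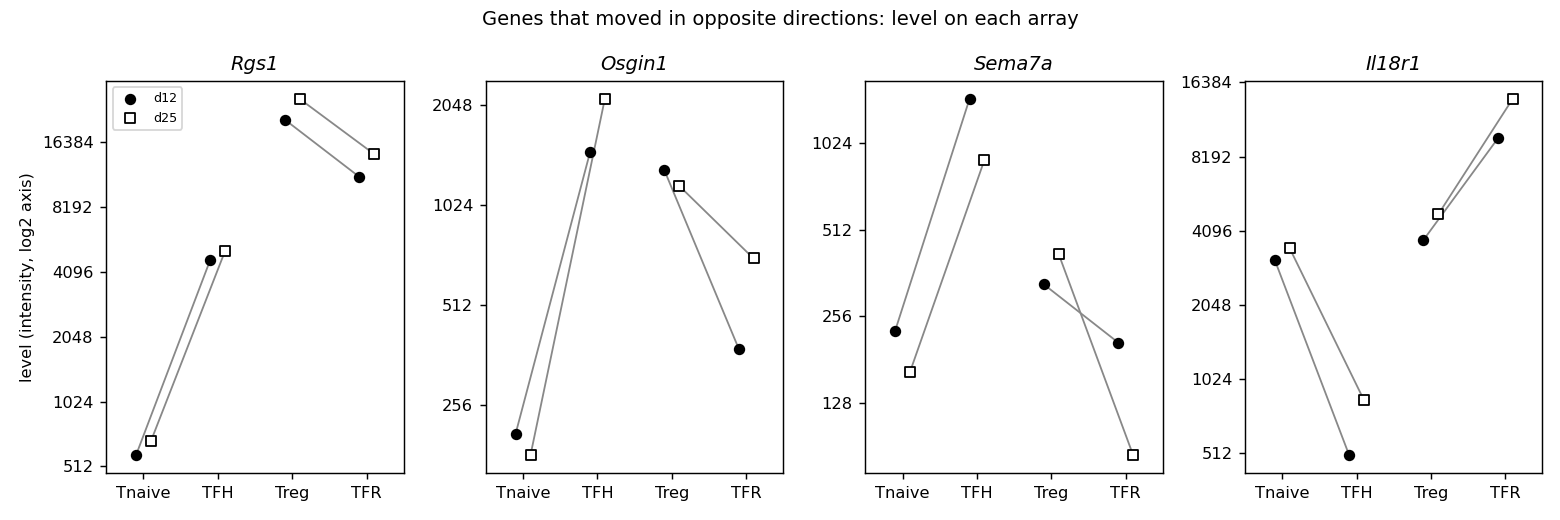
Level on each array (normalized intensity, log2 axis) by cell type for Rgs1, Osgin1, Sema7a and Il18r1, filled circles for d12 and open squares for d25. Lines join the cell types of 1 arm on the same day and slope in opposite directions in the 2 arms, with Rgs1 rising from 578 to 4669 in Foxp3-negative cells and falling from 20825 to 11314 in Foxp3-positive cells at d12.

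Further genes moved in opposite directions. Tmem141, a membrane protein, read 1486 and 1087 in Tnaive, 375 and 400 in TFH, 245 and 232 in Treg, and 977 and 769 in TFR, and Lrrc23, a leucine-rich repeat protein, read 428 and 514 in Tnaive, 70 and 128 in TFH, 188 and 266 in Treg, and 441 and 478 in TFR. Both fell in TFH and rose in TFR, with differences of 3.58 (SE 0.22, adjusted p = 0.0039) and 3.35 (SE 0.28, adjusted p = 0.00731). Ddc, the decarboxylase that makes dopamine and serotonin, read 591 and 762 in Tnaive, 225 and 412 in TFH, 471 and 633 in Treg, and 1732 and 3289 in TFR, and its difference was 3.27 (SE 0.25, adjusted p = 0.00608). Levels in TFR were thus the highest of the 4 cell types on both days. Tnfsf8 (CD30 ligand) behaved the other way, with 524 and 704 in Tnaive, 2259 and 3124 in TFH, 611 and 556 in Treg, and 204 and 365 in TFR and a difference of -3.22 (SE 0.33, adjusted p = 0.0115). Rb1, the retinoblastoma growth brake, rose by 1.17 in TFH and fell by 0.51 in TFR, and Art2b, an ectoenzyme that modifies surface proteins including P2RX7, rose by 1.53 and fell by 1.19. Kif23, a motor protein of cytokinesis, fell by 1.08 in TFH and rose by 1.97 in TFR, although most mitosis genes rose in both arms. Prdm1 and Tnfsf10 were chosen after their values were seen. Prdm1 (BLIMP1), a repressor of BCL6, read 883 and 991 in Tnaive, 608 and 566 in TFH, 1409 and 1294 in Treg, and 2650 and 4080 in TFR, with a difference of 1.96 (SE 0.29, adjusted p = 0.0264). Tnfsf10 (TRAIL) fell by 0.73 in TFH and rose by 0.73 in TFR. With 1 array left out, the call was lost for Lrrc23 (the Treg d12 array, adjusted p 0.0519), Tnfsf8 (either Tnaive array, the TFR d12 array, adjusted p 0.053 to 0.0589), Rb1 (either Tnaive or Treg or TFR array, adjusted p 0.0598 to 0.08), Art2b (either Tnaive or TFH or Treg or TFR array, adjusted p 0.0597 to 0.103), Kif23 (either Tnaive or Treg or TFR array, adjusted p 0.0522 to 0.11), Prdm1 (either Tnaive or TFH or Treg array, the TFR d25 array, adjusted p 0.0557 to 0.104), and Tnfsf10 (either Treg or TFR array, adjusted p 0.0511 to 0.0605). The block of slide in place of day also ended the call for Art2b, Kif23 and Prdm1 (adjusted p 0.0571 to 0.0677), and leaving out the block of day ended it for Art2b (adjusted p 0.082). The call for Ddc was lost only with no filter on dim probes (adjusted p 0.0504).

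The follicular program was built up in both arms, but less in Foxp3-positive cells. Of 25 members tested, 14 (56.0%) differed, all 14 lower in the Foxp3-positive arm, against 4.36% of all genes tested. In 11 of the 14 both arms moved in the same direction with the smaller change in Foxp3-positive cells, and the median difference over the 25 members was -1.41 against -0.00046 for all genes. In TFH 21 members rose, and in TFR 18, where 46.4% and 39.4% of all genes were called in either direction. Ascl2, a transcription factor that induces CXCR5, read 58 and 53 in Tnaive, 43718 and 61146 in TFH, 357 and 490 in Treg, and 3578 and 6458 in TFR. Since it was not well above background in Tnaive, its rise is given as a bound, at least 725-fold in TFH, whereas it rose by 3.52 (log2) in TFR. Cxcr5 itself read 1521 and 1411 in Tnaive, 134832 and 172249 in TFH, 4106 and 2836 in Treg, and 29354 and 29726 in TFR, and rose by 6.70 in TFH and by 3.11 in TFR, with a difference of -3.59 (SE 0.31, adjusted p = 0.00779). S1pr2, a receptor that retains cells in the follicle, read 275 and 265 in Tnaive, 6491 and 4666 in TFH, 429 and 391 in Treg, and 921 and 978 in TFR, and its difference was -3.14 (SE 0.21, adjusted p = 0.00491). S1pr2 and Fas are themselves among the 6 germinal center B cell markers, and the part of such cells was not tested. Of the helper receptors, Pdcd1 (PD1), on which the cells were sorted, read 2085 and 2082 in Tnaive, 171649 and 217537 in TFH, 4311 and 4183 in Treg, and 67229 and 89002 in TFR, with a difference of -2.35 (SE 0.21, adjusted p = 0.00821). Named after their values were seen, Maf rose by 4.82 in TFH and 1.97 in TFR, Bcl6 by 3.68 and 2.27, and Icos by 3.15 and 1.41. The receptor chain Il6ra was called in the Foxp3-positive arm alone, falling by 0.94, and the shared signaling chain Il6st rose by 0.50 in TFH and fell by 0.40 in TFR.

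For other helper genes the difference did not pass the test. Il21, whose cytokine drives germinal center B cells, read 285 and 205 in Tnaive, 20301 and 22346 in TFH, 20 and 20 in Treg, and 1551 and 2307 in TFR. Treg was at the floor of the values, so that no size of its difference can be given. Batf, needed for both TFH and class switching, gave -0.018 (SE 0.15, adjusted p = 0.957), and Il4, a switch factor for IgG1, gave -1.50 (SE 0.55, adjusted p = 0.183). Tigit, with 1 of 2 Tnaive arrays well above background, and Lag3, which inhibit T cells, rose in both arms, with differences of -2.08 (SE 0.54, adjusted p = 0.0926) and -1.50 (SE 0.64, adjusted p = 0.237). None of these 4 differences passed the test, which does not show that the changes were alike. Leaving out 1 array ended the call for Cxcr5 (either TFR array, adjusted p 0.0527 to 0.057), Pdcd1 (the TFR d12 array, adjusted p 0.0503), Maf (either TFR array, the Tnaive d25 array, the Treg d12 array, adjusted p 0.0548 to 0.0729), Bcl6 (either Tnaive or TFH or TFR array, the Treg d12 array, adjusted p 0.0502 to 0.117), Icos (either Tnaive or Treg or TFR array, the TFH d25 array, adjusted p 0.0564 to 0.132), Il6ra (either Tnaive or TFH or Treg or TFR array, adjusted p 0.0624 to 0.167), and Il6st (either Tnaive or TFH or Treg or TFR array, adjusted p 0.0695 to 0.124). With slide as a block the test was no longer passed by Bcl6, Icos, Il6ra and Il6st (adjusted p 0.0596 to 0.0764), and leaving out the block of day ended it for Bcl6, Il6ra and Il6st (adjusted p 0.0608 to 0.133). Without the d25 array of TFH, 10 of the 14 members remained called.

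Genes of resting T cells and of egress fell in both arms, where they differed mostly less in Foxp3-positive cells. Of 24 members tested, 10 differed (41.7%), 9 of them higher in the Foxp3-positive arm against 3.84% of all genes, and the median difference was 1.06. In both arms 21 members fell and none rose, where 46.4% of all genes were called in TFH and 39.4% in TFR, in either direction. Il7r, the receptor for the survival cytokine IL-7, read 33900 and 36691 in Tnaive, 1089 and 2450 in TFH, 8842 and 10740 in Treg, and 4929 and 8417 in TFR, so that it fell by 4.43 in TFH, while the change in TFR was -0.60 and was not called (adjusted p = 0.148). Its level before the change was already lower in Treg than in Tnaive. Ccr7, which holds cells in the T cell zone, read 127022 and 136320 in Tnaive, 4671 and 7209 in TFH, 86573 and 90048 in Treg, and 20163 and 18533 in TFR, and the difference was 2.31 (SE 0.27, adjusted p = 0.0158). Klf2, the factor that maintains the egress genes, read 99092 and 86573 in Tnaive, 6302 and 4748 in TFH, 93900 and 86684 in Treg, and 25420 and 13702 in TFR. TFR kept more Klf2 and Ccr7 message than TFH on both days, and the difference for Klf2 was 1.81 (SE 0.29, adjusted p = 0.0313). Dapl1, a marker of quiescent cells, fell by 4.76 in TFH and by 3.11 in TFR. The egress receptor S1pr1 fell in both arms, and its difference of 1.13 (SE 0.25, adjusted p = 0.0678) did not pass the test. Klf3, a relative of Klf2 named after its values were seen, went the other way, with -0.095 in TFH, a fall by 1.43 in TFR and a difference of -1.34 (SE 0.22, adjusted p = 0.0327). Satb1, a chromatin organizer, fell in both arms, the difference, which did not pass the test, being -0.22 (SE 0.59, adjusted p = 0.858). Calls lost without 1 array were those of Il7r (either Treg or TFR array, adjusted p 0.0544 to 0.0706), Ccr7 (either Tnaive or Treg or TFR array, adjusted p 0.0593 to 0.083), Klf2 (either Tnaive or TFH or Treg array, the TFR d12 array, adjusted p 0.0675 to 0.125), Dapl1 (either TFR array, the Tnaive d12 array, adjusted p 0.0519 to 0.0585), and Klf3 (either Tnaive or Treg or TFR array, adjusted p 0.0784 to 0.15). Slide as a block ended the call for Klf2 and Klf3 (adjusted p 0.072 to 0.0772), and leaving out the block of day ended it for Klf2 and Klf3 (adjusted p 0.0837 to 0.171).

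Several genes of the Treg suppressor program rose in TFH cells to or toward the level of Treg cells. Of 25 members tested, 9 differed (36.0%), 6 lower and 3 higher in the Foxp3-positive arm, against 8.21% of all genes, with a median difference of -0.50. This median was -0.82 at d12 and -0.15 at d25. The median change over the list was 0.77 in TFH and 0.81 in TFR. Ctla4, an inhibitory receptor of T cells, read 538 and 655 in Tnaive, 6485 and 8128 in TFH, 7374 and 9096 in Treg, and 9805 and 13853 in TFR. It rose by 3.61 in TFH and by 0.51 in TFR, the differences being -3.18 at d12 and -3.03 at d25 (adjusted p = 0.00277), and the level in TFH came close to that in Treg on both days. Ikzf2 (Helios), a factor that stabilizes Treg cells, read 97 and 166 in Tnaive, 9409 and 9673 in TFH, 8916 and 9917 in Treg, and 19642 and 24128 in TFR. It rose by 6.23 in TFH, with 1 of 2 Tnaive arrays well above background, and by 1.21 in TFR, and the difference was -5.02 (SE 0.27, adjusted p = 0.00319). Nrp1, a coreceptor for semaphorins and VEGF, read 64 and 92 in Tnaive, 1281 and 1158 in TFH, 1367 and 1274 in Treg, and 2741 and 2715 in TFR, again with close levels in TFH and Treg, and rose at least 14-fold in TFH. Nt5e (CD73), which makes adenosine, read 1092 and 1251 in Tnaive, 9837 and 17114 in TFH, 5979 and 7774 in Treg, and 12441 and 24442 in TFR, and its difference was -2.12 (SE 0.30, adjusted p = 0.0237). Ikzf4 (Eos), a partner of Foxp3 in repression, was the opposite case. It read 2203 and 2543 in Tnaive, 513 and 746 in TFH, 18141 and 17411 in Treg, and 20881 and 23914 in TFR, fell by 1.94 in TFH and changed by 0.33 in TFR without passing the test, with a difference of 2.27 (SE 0.22, adjusted p = 0.0101), although 1 of 2 other probes had the opposite sign. Foxp3, named after its values were seen, fell by 1.98 in TFH from an already low level and changed by -0.34 in TFR, with a difference of 1.64 (SE 0.23, adjusted p = 0.0228), or 0.63 (adjusted p = 0.0517) with normexp. Lrrc32 (GARP), which anchors TGF-beta on Treg cells, did not pass the test, with 0.25 (SE 0.29, adjusted p = 0.656). With 1 array left out, the call was lost for Nrp1 (either TFR array, the Treg d12 array, adjusted p 0.0544 to 0.0593), Nt5e (either Tnaive or TFH or Treg or TFR array, adjusted p 0.0522 to 0.108), Ikzf4 (either Tnaive or TFR array, adjusted p 0.052 to 0.0692), and Foxp3 (either Treg or TFR array, the Tnaive d12 array, adjusted p 0.0666 to 0.117). The block of slide in place of day also ended the call for Nt5e and Foxp3 (adjusted p 0.0604 to 0.0624), and leaving out the block of day ended it for Nt5e (adjusted p 0.11).

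In the IL-2 pathway, on which Treg cells depend, 3 of 18 members differed (16.7%, against 8.21% of all genes), each called in the Foxp3-negative arm alone. Il2rb, the signaling chain shared by the IL-2 and IL-15 receptors, read 4591 and 4726 in Tnaive, 27942 and 31127 in TFH, 49562 and 42923 in Treg, and 49688 and 57329 in TFR, with a difference of -2.45 (SE 0.18, adjusted p = 0.00539). Gfi1, a transcriptional repressor, read 1702 and 1898 in Tnaive, 6034 and 7651 in TFH, 4259 and 4333 in Treg, and 3134 and 4058 in TFR, and gave -2.19 (SE 0.16, adjusted p = 0.00583). In both genes TFH rose while the step from Treg to TFR was not called. Cish, a feedback inhibitor induced by STAT5, read 2157 and 3130 in Tnaive, 724 and 762 in TFH, 26353 and 28729 in Treg, and 22722 and 25437 in TFR, and fell by 1.81 in TFH. It stayed high in Foxp3-positive cells, and the difference was 1.61 (SE 0.20, adjusted p = 0.0169). Il2ra (CD25) fell by 0.63 in TFR, but its difference of -0.70 (SE 0.15, adjusted p = 0.0644) was not called, with levels of 22127 and 24181 in Treg and 12789 and 17384 in TFR. Of the 3 called genes, leaving out 1 array ended the call for Cish (either Treg or TFR array, adjusted p 0.0781 to 0.1).

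Among the 413 genes called in the Foxp3-negative arm alone, 225 rose and 188 fell in TFH. P2rx7, an ion channel gated by extracellular ATP, read 1251 and 1595 in Tnaive, 30182 and 35418 in TFH, 13030 and 14184 in Treg, and 15864 and 15364 in TFR. The rise in TFH was 4.53, the change in TFR 0.20, and the difference -4.33 (SE 0.17, adjusted p = 0.0026), and both other probes had the same sign. Id1, which blocks E protein factors, read 254 and 327 in Tnaive, 4752 and 4735 in TFH, 311 and 244 in Treg, and 406 and 229 in TFR, and only TFH arrays were high. Prodh, the first enzyme of proline breakdown, read 177 and 176 in Tnaive, 3203 and 863 in TFH, 693 and 727 in Treg, and 380 and 428 in TFR, so that the d12 array of TFH carried most of the rise. Nme4, a mitochondrial nucleoside diphosphate kinase, read 6175 and 5263 in Tnaive, 765 and 573 in TFH, 354 and 362 in Treg, and 486 and 520 in TFR. It fell by 3.11 in TFH, and both Foxp3-positive cell types lay below TFH on both days, with a difference of 3.60 (SE 0.21, adjusted p = 0.00367). Tacc2, a centrosomal protein, fell by 3.22 in TFH and gave 3.42 (SE 0.39, adjusted p = 0.0151). Of cytoskeletal genes, Vim (vimentin) read 34571 and 37266 in Tnaive, 11755 and 9217 in TFH, 49406 and 56574 in Treg, and 64208 and 61146 in TFR and Tagln2 53507 and 51978 in Tnaive, 19031 and 15470 in TFH, 35468 and 36609 in Treg, and 45564 and 40824 in TFR. The lowest levels of both were in TFH, with differences of 2.03 (SE 0.22, adjusted p = 0.0124) and 1.88 (SE 0.16, adjusted p = 0.00731). Runx3, a factor of cytotoxic and TH1 cells, fell by 2.77 in TFH, and its change of 0.39 in TFR was not called. Sytl1, a Rab effector of secretion, read 5824 and 5161 in Tnaive, 1348 and 1416 in TFH, 10572 and 9952 in Treg, and 9236 and 9085 in TFR, and gave 1.83 (SE 0.13, adjusted p = 0.00539). Leaving out 1 array ended the call for Id1 (either Treg array, adjusted p 0.0614 to 0.0703), Prodh (either Tnaive or Treg or TFR array, adjusted p 0.127 to 0.193), Tacc2 (either Tnaive or Treg or TFR array, adjusted p 0.055 to 0.0945), Vim (either Tnaive or TFR array, the Treg d12 array, adjusted p 0.055 to 0.0826), Tagln2 (either TFR array, adjusted p 0.0504 to 0.055), and Runx3 (either Tnaive or Treg or TFR array, adjusted p 0.0635 to 0.107). Slide as a block ended the call for Prodh (adjusted p 0.0706).

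Fewer genes, 215, were called in the Foxp3-positive arm alone, of which 141 rose and 74 fell in TFR. Mgmt, which repairs alkylated guanine in DNA, read 3075 and 2163 in Tnaive, 2775 and 2528 in TFH, 3707 and 2528 in Treg, and 16278 and 16466 in TFR. The difference was 2.38 (SE 0.24, adjusted p = 0.0115), and TFR stood above the other 3 cell types on both days. Tnfrsf1b (TNFR2), a receptor through which TNF expands Treg cells, read 1431 and 1602 in Tnaive, 1178 and 1618 in TFH, 5146 and 5559 in Treg, and 12400 and 16018 in TFR, and gave 1.53 (SE 0.17, adjusted p = 0.013). Nkg7, a cytotoxic granule protein, read 8703 and 7094 in Tnaive, 6867 and 11615 in TFH, 8059 and 6437 in Treg, and 42203 and 42395 in TFR, with a difference of 2.37 (SE 0.41, adjusted p = 0.0365) and 2.69 by another probe. Of the other granule genes, Prf1 (perforin), named after its values were seen, fell in both arms, with 1.01 (SE 0.12, adjusted p = 0.0171). Tsc22d1, a TGF-beta-induced leucine zipper protein, read 312 and 283 in Tnaive, 170 and 224 in TFH, 360 and 382 in Treg, and 1136 and 1678 in TFR, and Emp1, a membrane protein, read 230 and 196 in Tnaive, 361 and 174 in TFH, 221 and 225 in Treg, and 1334 and 1394 in TFR. Both were raised in TFR alone, with differences of 2.50 (SE 0.27, adjusted p = 0.0126) and 2.37 (SE 0.42, adjusted p = 0.0392). Cd40, better known as the receptor of B cells for CD40 ligand, read 54 and 86 in Tnaive, 75 and 142 in TFH, 58 and 68 in Treg, and 337 and 390 in TFR. It rose at least 5.33-fold in TFR. The summed level of 10 B cell markers was 7428 and 8437 in TFR and 9717 and 9397 in Treg, and that of 10 myeloid markers 33695 and 34159 against 27926 and 27024. Among the latter, Cd74 read 3300 and 3397 in Treg and 10660 and 12691 in TFR. H2-Ab1 went the other way, from 3095 and 4784 in Treg to 2456 and 3834 in TFR. H2-Aa, Itgam and Csf1r were also lower in TFR on both days, whereas Lyz2, Fcer1g and Tyrobp were higher. The part of such cells was not tested. Havcr2 (TIM-3), an inhibitory receptor, read 20 and 20 in Tnaive, 20 and 20 in TFH, 88 and 67 in Treg, and 617 and 372 in TFR, and Nqo1, a quinone reductase, 20 and 20 in Tnaive, 20 and 20 in TFH, 20 and 20 in Treg, and 196 and 83 in TFR, where 20 is the floor of the values. Both genes were well above background on both arrays in TFR alone. Havcr2, measured on 1 of 2 Treg arrays, rose by 2.64 (log2), and Nqo1 rose at least 2.01-fold. The difference for Nqo1 was not called with a floor of 100, at 0.49 (adjusted p = 0.516), with normexp, at 0.64 (adjusted p = 0.135), or with the authors' steps repeated, at 2.45 (adjusted p = 0.0617). Rcn1, a calcium-binding protein of the endoplasmic reticulum, read 3082 and 3443 in Tnaive, 1782 and 3038 in TFH, 11278 and 12243 in Treg, and 2632 and 3455 in TFR, and thus left its high level in Treg. Sardh, a mitochondrial sarcosine dehydrogenase, and Tm6sf1, a membrane protein, fell by 1.81 and 2.02 in TFR. Calls lost without 1 array were those of Mgmt (the Tnaive d12 array, the Treg d25 array, the TFR d25 array, adjusted p 0.0517 to 0.055), Tnfrsf1b (either Tnaive or Treg or TFR array, adjusted p 0.0525 to 0.0751), Nkg7 (either Tnaive or Treg or TFR array, adjusted p 0.0927 to 0.163), Prf1 (either Tnaive or Treg or TFR array, adjusted p 0.0605 to 0.0915), Tsc22d1 (either Treg array, the TFR d25 array, adjusted p 0.058 to 0.0663), Emp1 (either Tnaive or Treg or TFR array, adjusted p 0.109 to 0.154), Cd40 (either Tnaive or Treg or TFR array, the TFH d12 array, adjusted p 0.0504 to 0.119), Havcr2 (either Tnaive or Treg array, adjusted p 0.05 to 0.0719), Nqo1 (either Tnaive or TFH or Treg array, adjusted p 0.0852 to 0.173), Rcn1 (either Tnaive or Treg or TFR array, adjusted p 0.0955 to 0.165), Sardh (either Tnaive or Treg or TFR array, adjusted p 0.104 to 0.163), and Tm6sf1 (either Tnaive or Treg or TFR array, the TFH d25 array, adjusted p 0.0637 to 0.141). The block of slide in place of day also ended the call for Nkg7, Emp1, Nqo1, Rcn1, Sardh and Tm6sf1 (adjusted p 0.0504 to 0.0781), and leaving out the block of day ended it for Prf1, Cd40, Rcn1, Sardh and Tm6sf1 (adjusted p 0.0714 to 0.112).

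Genes that moved further in Foxp3-positive cells were the smallest class, with 51 rising and 23 falling in both arms. Ccr8, a chemokine receptor of activated Treg cells, read 118 and 114 in Tnaive, 141 and 169 in TFH, 257 and 260 in Treg, and 1303 and 1531 in TFR. The difference was 2.04 (SE 0.16, adjusted p = 0.00634), and the call held under all 18 refitted alternatives. Nrn1 (neuritin), a small membrane-anchored protein, read 854 and 1005 in Tnaive, 2391 and 3230 in TFH, 3093 and 3666 in Treg, and 25126 and 33334 in TFR, so that TFH came near the level of Treg and TFR went beyond it. Tctex1d2, a dynein light chain, read 649 and 422 in Tnaive, 1167 and 909 in TFH, 320 and 230 in Treg, and 3193 and 4489 in TFR, and its difference was 2.83 (SE 0.41, adjusted p = 0.0241). Dusp14, a MAP kinase phosphatase, rose by 1.73 in TFH and by 2.80 in TFR, and Echdc2, an enoyl-CoA hydratase-like protein, by 0.84 and 2.71. Of the falling genes, St8sia1, the sialyltransferase that makes the ganglioside GD3, read 14879 and 17624 in Tnaive, 7472 and 8861 in TFH, 7477 and 9161 in Treg, and 1526 and 1548 in TFR, with close levels in TFH and Treg and a difference of -1.44 (SE 0.14, adjusted p = 0.0103). The potassium channel gene Kcnh3 fell by 0.62 in TFH and 2.11 in TFR, and Nipal1, a magnesium transporter, by 0.53 and 1.99. With 1 array left out, the call was lost for Nrn1 (either TFR array, adjusted p 0.0522 to 0.0552), Tctex1d2 (either Tnaive or TFH or Treg array, adjusted p 0.0664 to 0.104), Dusp14 (either Tnaive or Treg or TFR array, adjusted p 0.095 to 0.128), Echdc2 (either Treg or TFR array, adjusted p 0.0906 to 0.111), St8sia1 (either Tnaive or Treg array, adjusted p 0.052 to 0.0585), Kcnh3 (either Tnaive or Treg or TFR array, the TFH d25 array, adjusted p 0.058 to 0.136), and Nipal1 (either Tnaive or Treg or TFR array, the TFH d25 array, adjusted p 0.0548 to 0.128). With slide as a block the test was no longer passed by Tctex1d2, Echdc2 and Kcnh3 (adjusted p 0.0504 to 0.0577), and leaving out the block of day ended it for Nrn1, Echdc2 and Nipal1 (adjusted p 0.0534 to 0.155). With the mean over all probes Echdc2 gave 1.55 and was not called (adjusted p = 0.0965).

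**Figure D3:**
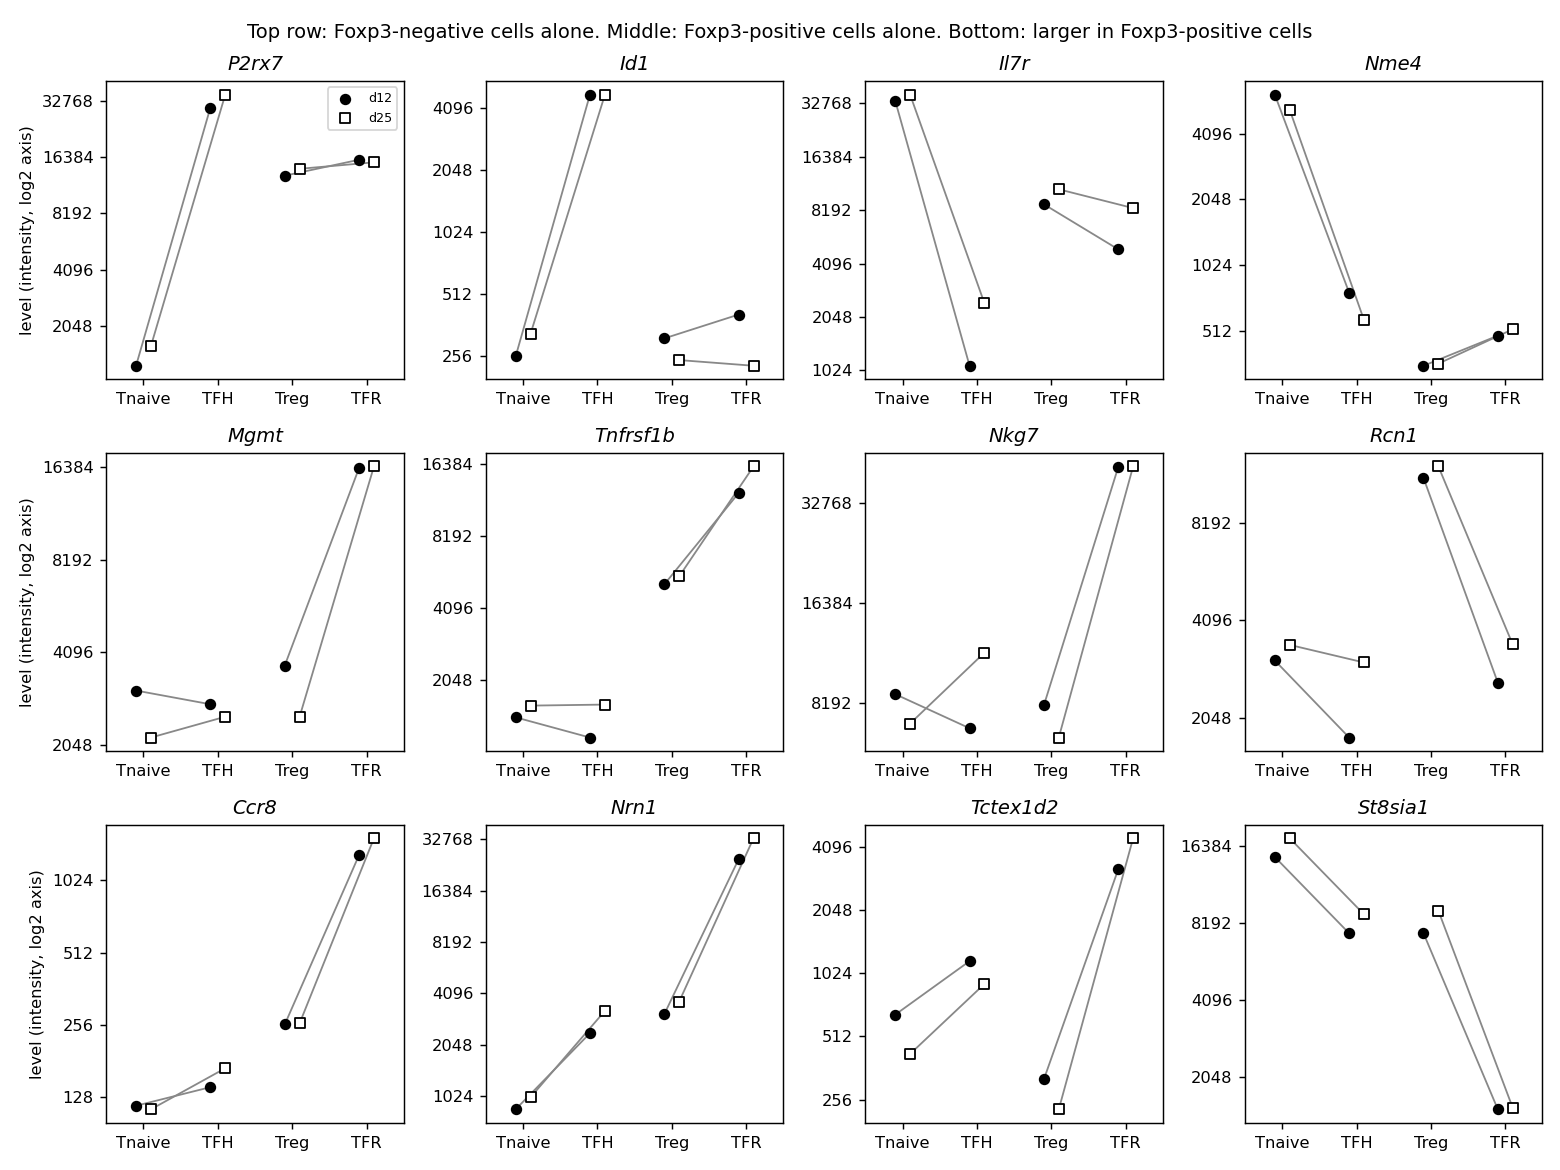
Level on each array (normalized intensity, log2 axis) for 12 genes, filled circles for d12, open squares for d25, lines joining the cell types of 1 arm on the same day. In the top row the steep lines are those from Tnaive to TFH (P2rx7 from 1251 to 30182 at d12), in the middle row those from Treg to TFR (Mgmt from 3707 to 16278), and in the bottom row both lines slope the same way, the one on the right more steeply.

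Other genes moved in the same direction in both arms, but less in Foxp3-positive cells. Pdlim4, an actin-associated adaptor, read 28198 and 23568 in Tnaive, 317 and 487 in TFH, 582 and 494 in Treg, and 228 and 289 in TFR, and fell by 6.04 in TFH and fell by 1.06 in TFR. Lypd6b, a Ly6 family protein, and Fam46a, a noncanonical poly(A) polymerase, fell in both arms, with -5.37 and -4.74 in TFH against -1.92 and -1.29 in TFR. In Pdlim4 and Lypd6b the Treg level was already far below that of Tnaive. Of the rising genes, Fam43a read 91 and 108 in Tnaive, 11278 and 16302 in TFH, 362 and 365 in Treg, and 1922 and 2395 in TFR, with a difference of -4.53 (SE 0.20, adjusted p = 0.00277). Fam20a, a pseudokinase of the secretory pathway, and Coro2b, an actin-binding coronin, rose by 5.90 and 6.54 in TFH and by 1.83 and 2.62 in TFR. The smooth muscle protein gene Smtn read 504 and 471 in Tnaive, 32806 and 42978 in TFH, 305 and 201 in Treg, and 2207 and 1928 in TFR, which left TFR far below TFH. Leaving out 1 array ended the call for Fam20a (the Treg d12 array, adjusted p 0.0504), and Smtn (either Tnaive or TFR array, adjusted p 0.0583 to 0.0763).

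Signaling families were split between the classes. Of 12 RGS proteins tested, 6 differed, against 8.21% of all genes, 5 lower and 1 higher. Rgs16, which limits chemotaxis to CXCL12, read 102 and 74 in Tnaive, 10221 and 15299 in TFH, 882 and 987 in Treg, and 6472 and 12243 in TFR, and rose by 7.17 in TFH, with 1 of 2 Tnaive arrays well above background, and by 3.25 in TFR. Rgs8 rose at least 22-fold in TFH and at least 1.93-fold in TFR. Rgs10 read 85719 and 94857 in Tnaive, 231290 and 268465 in TFH, 104030 and 105968 in Treg, and 102301 and 113673 in TFR, and was called in the Foxp3-negative arm alone. Rgs12, named after its values were seen, was the member that went up in TFR alone, by 0.82. Among 22 chemoattractant receptors 4 were higher and 4 lower (36.4%, against 8.21%). Besides those given above, Cxcr1, a receptor for CXCL8-type chemokines, read 705 and 310 in Tnaive, 20 and 24 in TFH, 42 and 20 in Treg, and 20 and 20 in TFR, and was well above background on both arrays in Tnaive alone, with a fall of at least 12-fold in TFH and no call with a floor of 100, at 2.22 (adjusted p = 0.0706). Named after their values were seen, Gpr18 fell by 4.62 in TFH and 2.34 in TFR, and Ccr9, the gut homing receptor, fell by 1.73 in TFH and fell by 3.92 in TFR. With the mean over all probes Ccr9 gave -1.09 (adjusted p = 0.0592). Cxcr4, the receptor that draws cells to the dark zone, gave -1.43 (SE 0.41, adjusted p = 0.114). Calls lost without 1 array were those of Rgs16 (either Treg or TFR array, the TFH d25 array, adjusted p 0.0511 to 0.0879), Rgs8 (the Treg d12 array, adjusted p 0.051), Rgs10 (either TFR array, adjusted p 0.0527 to 0.0555), Rgs12 (either Tnaive or TFH or Treg or TFR array, adjusted p 0.0501 to 0.0934), Cxcr1 (either Tnaive or Treg or TFR array, the TFH d12 array, adjusted p 0.0598 to 0.118), Gpr18 (either Tnaive or Treg array, the TFR d12 array, adjusted p 0.052 to 0.0725), and Ccr9 (either Tnaive or TFH or TFR array, the Treg d12 array, adjusted p 0.0593 to 0.183). The block of slide in place of day also ended the call for Rgs12, Cxcr1 and Ccr9 (adjusted p 0.0525 to 0.0875), and leaving out the block of day ended it for Ccr9 (adjusted p 0.114).

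Among TNF family ligands 6 of 13 differed (46.2%, against 8.21% of all genes), 5 lower and 1 higher. Tnfsf11 (RANKL) read 366 and 420 in Tnaive, 5946 and 8820 in TFH, 1228 and 1756 in Treg, and 3952 and 5345 in TFR, and rose by 4.21 in TFH and 1.65 in TFR, with -2.56 (SE 0.16, adjusted p = 0.00421). Tnf itself read 743 and 701 in Tnaive, 3232 and 2475 in TFH, 1647 and 1393 in Treg, and 1719 and 1473 in TFR, so that the gene rose in TFH alone, and gave -1.90 (SE 0.14, adjusted p = 0.00578). Tnfsf13b (BAFF), a survival factor for B cells, read 20 and 23 in Tnaive, 779 and 874 in TFH, 57 and 51 in Treg, and 489 and 583 in TFR, with rises of at least 11.6-fold in TFH and 8.43-fold in TFR and a difference that was not called with a floor of 100, at -0.63 (adjusted p = 0.056). The receptors were divided, with 3 of 21 higher and 3 lower (28.6%). Tnfrsf4 (OX40) read 8423 and 7981 in Tnaive, 51249 and 39920 in TFH, 88369 and 90904 in Treg, and 181156 and 186310 in TFR, the highest in TFR on both days, although it rose less there, the difference being -1.43 (SE 0.18, adjusted p = 0.0186). Fas, the death receptor, rose by 0.99 in TFH and changed by -0.28 in TFR. Of 26 costimulatory and coinhibitory receptors, 7 were lower and 1 was higher (30.8%). Pdcd1lg2 (PD-L2) read 586 and 759 in Tnaive, 7345 and 10016 in TFH, 3501 and 3762 in Treg, and 12416 and 14869 in TFR, and its difference was -1.78 (SE 0.16, adjusted p = 0.00805). With 1 array left out, the call was lost for Tnfsf13b (either TFR array, the Tnaive d12 array, adjusted p 0.0502 to 0.0596), Tnfrsf4 (either Tnaive or Treg or TFR array, adjusted p 0.0776 to 0.103), Fas (either Tnaive or Treg or TFR array, adjusted p 0.0528 to 0.0715), and Pdcd1lg2 (either TFR array, adjusted p 0.057 to 0.0578). Leaving out the block of day ended the call for Fas (adjusted p 0.106).

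In the semaphorin family 4 of 16 members were lower and 2 higher (37.5%, against 8.21% of all genes). Plxnd1, a semaphorin receptor that guides thymocytes and germinal center cells, read 552 and 773 in Tnaive, 9515 and 10820 in TFH, 1730 and 1788 in Treg, and 4584 and 4876 in TFR, with -2.53 (SE 0.19, adjusted p = 0.00559), and Plxnc1, a receptor of SEMA7A, read 459 and 535 in Tnaive, 2998 and 3369 in TFH, 928 and 1072 in Treg, and 2426 and 2717 in TFR, with -1.32 (SE 0.10, adjusted p = 0.00652). Ligand and receptor thus moved differently, since Sema7a fell in TFR while Plxnc1 rose by 1.36. Of 8 members of the IL-1 and IL-18 receptor family, Il18r1 was higher and Il1r1, the signaling receptor for IL-1, lower (25.0%). Il1r1 read 45 and 22 in Tnaive, 5821 and 3981 in TFH, 31 and 22 in Treg, and 675 and 185 in TFR, and rose at least 67.5-fold in TFH and 5.58-fold in TFR. The other chain of the IL-18 receptor, Il18rap, read 201 and 336 in TFR and was well above background on both arrays there alone, so that no size of its difference can be given. Feedback regulators of MAP kinases had 3 lower members and 1 higher among 13 (30.8%). Dusp4 read 20 and 20 in Tnaive, 591 and 519 in TFH, 375 and 374 in Treg, and 923 and 917 in TFR. It rose at least 7.77-fold in TFH and by 1.30 (log2) in TFR. Spry1 (Sprouty) read 166 and 149 in Tnaive, 3146 and 1941 in TFH, 1157 and 1548 in Treg, and 2230 and 2429 in TFR, and rose by 3.97 in TFH, while its change of 0.80 in TFR was not called. Of the TGF-beta genes, 2 of 19 differed (10.5%), a share near the 8.21% of all genes. Smad7, the inhibitor of the pathway, read 3237 and 3485 in Tnaive, 152 and 145 in TFH, 3172 and 3454 in Treg, and 1348 and 1432 in TFR, and fell by 4.50 in TFH and 1.25 in TFR, the difference being 3.25 (SE 0.12, adjusted p = 0.0026). Tgfb3 rose by 3.09 in TFH. Among helper lineage genes 3 of 21 were higher and 3 lower (28.6%), with Il12rb1, a chain of the IL-12 receptor, at -1.37 and Il4ra at 2.04. Another probe gave -0.51 for Il12rb1 and 1.03 for Il4ra. Il4ra was not called with the mean over all probes, at 1.53 (adjusted p = 0.0571), or with a floor of 100 (adjusted p = 0.0565). Tbx21 (T-bet) and Gata3 gave 1.40 (SE 0.29, adjusted p = 0.0546) and 0.02 (SE 0.23, adjusted p = 0.969). Leaving out 1 array ended the call for Plxnc1 (either TFR array, the Treg d12 array, adjusted p 0.0502 to 0.0511), Il1r1 (either Tnaive or TFH or Treg array, adjusted p 0.0546 to 0.0977), Spry1 (either Tnaive or Treg or TFR array, adjusted p 0.0504 to 0.1), Tgfb3 (either Tnaive or Treg array, adjusted p 0.0524 to 0.0781), Il12rb1 (either Treg or TFR array, the Tnaive d12 array, adjusted p 0.0583 to 0.087), and Il4ra (either Tnaive or Treg or TFR array, adjusted p 0.0992 to 0.167). Slide as a block ended the call for Il1r1 and Il4ra (adjusted p 0.0523 to 0.06), and leaving out the block of day ended it for Il1r1 and Tgfb3 (adjusted p 0.0979 to 0.112).

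Few genes of antigen receptor signaling were called. Of 29 signaling components 3 were lower (10.3%), near the 8.21% of all genes. At an unadjusted p below 0.05 in limma, 15 of the 29 passed, against 3964 of 15762 genes tested, the share of the list being larger. Their median difference was -0.44, against -0.00046 for all genes. Themis, which tunes the receptor signal, fell by 1.05 in TFR, its change of 0.19 in TFH not being called, although the difference was -0.20 by another probe and -0.72 (adjusted p = 0.234) by the mean over all probes, and Prkcq (PKC-theta) fell by 0.79. Fyn rose by 1.10 in TFH and 0.39 in TFR. Of 22 genes induced early by the receptor, Nfatc2 and Egr2 were lower and Fosl2 higher (13.6%). With the mean over all probes Nfatc2 and Fosl2 were not called, at -0.83 (adjusted p = 0.0626) and 1.35 (adjusted p = 0.0651). Nr4a1, a reporter of receptor signals, gave -0.41 (SE 0.14, adjusted p = 0.17). Of 24 NF-kappaB genes (8.33% called, near the 8.21% of all genes) Nfkb1 and Nfkbid were lower, each having risen in TFH alone, with -1.21 (SE 0.17, adjusted p = 0.0227) and -1.16 (SE 0.16, adjusted p = 0.0222). Calls lost without 1 array were those of Themis (either Tnaive or Treg or TFR array, adjusted p 0.13 to 0.184), Prkcq (either Tnaive or TFH or Treg or TFR array, adjusted p 0.0756 to 0.137), Fyn (either Tnaive or Treg or TFR array, the TFH d12 array, adjusted p 0.0647 to 0.165), Nfatc2 (either Tnaive or TFH or Treg or TFR array, adjusted p 0.0568 to 0.127), Egr2 (either Tnaive or Treg or TFR array, adjusted p 0.0836 to 0.113), Fosl2 (either Tnaive or Treg array, the TFH d12 array, the TFR d12 array, adjusted p 0.0587 to 0.127), Nfkb1 (either Tnaive or Treg or TFR array, the TFH d25 array, adjusted p 0.0516 to 0.112), and Nfkbid (either Tnaive or Treg or TFR array, adjusted p 0.0758 to 0.108). The block of slide in place of day also ended the call for Themis, Prkcq, Fyn, Nfatc2, Fosl2 and Nfkb1 (adjusted p 0.0543 to 0.0838), and leaving out the block of day ended it for Themis, Fyn, Nfatc2, Egr2 and Nfkb1 (adjusted p 0.0511 to 0.211).

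Of 28 genes of the hypoxia response and glycolysis, 4 were lower (14.3%, against 8.21% of all genes) and none higher. Egln3, a prolyl hydroxylase that senses oxygen, read 217 and 209 in Tnaive, 11148 and 9570 in TFH, 303 and 334 in Treg, and 1443 and 1344 in TFR, and rose by 5.60 in TFH and 2.13 in TFR, with -3.47 (SE 0.16, adjusted p = 0.00286). Hif1a read 1901 and 2308 in Tnaive, 14479 and 26132 in TFH, 2611 and 3926 in Treg, and 5449 and 10422 in TFR, with -1.98 (SE 0.25, adjusted p = 0.0192), and of the enzymes Pfkp was called, with -1.29 (SE 0.18, adjusted p = 0.0221). Ldha and Slc2a1, the glucose transporter, gave -0.11 (SE 0.13, adjusted p = 0.665) and -0.70 (SE 0.18, adjusted p = 0.0888). In the NRF2 and oxidative stress list 4 of 24 were lower and 3 higher (29.2%). Hmox1 (heme oxygenase) rose by 4.21 in TFH and 2.66 in TFR, and Mafg, a partner of NRF2, by 3.15 and 1.52. Amino acid transporters had 4 lower members of 16 (25.0%). Slc43a1, a carrier of large neutral amino acids, read 20 and 20 in Tnaive, 3614 and 2439 in TFH, 311 and 281 in Treg, and 789 and 601 in TFR. It rose at least 41.6-fold in TFH and by 1.22 (log2) in TFR. Slc7a10 read 20 and 20 in Tnaive, 1541 and 2284 in TFH, 231 and 179 in Treg, and 5663 and 6124 in TFR, and its difference of -1.70 changed sign with another background correction and with a higher floor, Tnaive being at the floor of the values. Of 27 genes of sterol and fatty acid synthesis, 2 were lower and 1 higher (11.1%), near the share of all genes. Srebf2, the master factor of sterol synthesis, fell by 0.98 in TFR alone, with -0.72 (SE 0.13, adjusted p = 0.0422). In the endoplasmic reticulum list Xbp1, the factor of the unfolded protein response, rose by 1.10 in TFH alone and gave -1.26 (SE 0.13, adjusted p = 0.0115), and 2 of 24 members were called in all (8.33%), the share of all genes being 8.21%. At an unadjusted p below 0.05 in limma, 10 of the 24 passed, against 3964 of 15762 genes tested, and the median difference was -0.25. With 1 array left out, the call was lost for Hif1a (either Treg or TFR array, the TFH d25 array, adjusted p 0.0544 to 0.0947), Pfkp (either Tnaive or Treg or TFR array, adjusted p 0.0769 to 0.114), Hmox1 (either Tnaive or TFR array, the Treg d12 array, adjusted p 0.0543 to 0.0814), Mafg (either TFR array, the Tnaive d12 array, adjusted p 0.0574 to 0.0729), Slc7a10 (either Tnaive or Treg or TFR array, the TFH d25 array, adjusted p 0.0611 to 0.185), Srebf2 (either Tnaive or TFH or Treg or TFR array, adjusted p 0.0793 to 0.172), and Xbp1 (either Treg or TFR array, the Tnaive d25 array, adjusted p 0.0528 to 0.0703). With slide as a block the test was no longer passed by Hif1a, Pfkp, Slc7a10 and Srebf2 (adjusted p 0.0507 to 0.0846), and leaving out the block of day ended it for Hif1a, Mafg and Srebf2 (adjusted p 0.149 to 0.203).

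Proliferation genes rose in both arms. Of 28 cell cycle genes, 21 rose in TFH and 25 in TFR, where 46.4% and 39.4% of all genes were called in either direction. In the difference 2 were called, Kif23 and Mcm7 (7.14%, against 8.21% of all genes). Mki67 (Ki-67) gave 0.026 (SE 0.27, adjusted p = 0.964) and Top2a, a topoisomerase, 0.062 (SE 0.37, adjusted p = 0.938), neither passing the test. Mcm7, a replication helicase subunit, rose by 0.31 in TFH and 1.01 in TFR. Of 21 Cdk inhibitors and growth brakes 3 were lower (14.3%), and the median difference was -0.08. Cdkn1a (p21) read 43 and 26 in Tnaive, 1111 and 1038 in TFH, 75 and 62 in Treg, and 418 and 318 in TFR and Gadd45b 2236 and 1674 in Tnaive, 23765 and 20667 in TFH, 4226 and 3057 in Treg, and 9719 and 9573 in TFR, so that both were highest in TFH. The difference for Gadd45b was -2.09 (SE 0.19, adjusted p = 0.00874). For Cdkn1a, the rise was at least 15.1-fold in TFH and 5.35-fold in TFR, but the difference was not called with the mean over all probes, at -0.50 (adjusted p = 0.438). Of 26 genes of ribosome biogenesis, 24 fell in TFH and 8 in TFR (called over all genes, 46.4% and 39.4%), while none differed, with a median difference of 0.35. Nor did any of 51 subunits of oxidative phosphorylation, whose median difference was -0.08. In limma at an unadjusted p below 0.05, 10 of 26 ribosome biogenesis and 4 of 51 oxidative phosphorylation genes passed, against 3964 of 15762 genes tested. The share of the former list lay above that of all genes, and that of the latter below it. Interferon-stimulated genes fell in both arms, 23 of 33 in TFH and 19 in TFR, where 46.4% and 39.4% of all genes were called in either direction. In the difference 4 were higher and 1 lower (15.2%). Among them Ifit3 read 7605 and 6771 in Tnaive, 1542 and 1643 in TFH, 8020 and 8107 in Treg, and 4030 and 3991 in TFR and Bst2 (tetherin) 41812 and 37816 in Tnaive, 13332 and 14381 in TFH, 45749 and 42203 in Treg, and 31913 and 29252 in TFR, with differences of 1.17 (SE 0.13, adjusted p = 0.0148) and 1.00 (SE 0.14, adjusted p = 0.0227). Of 16 BCL-2 family members, Bcl2a1d alone differed (6.25%), rising by 3.49 in TFH and 2.11 in TFR, and its probe may read other copies of this multigene family. Leaving out 1 array ended the call for Kif23 (either Tnaive or Treg or TFR array, adjusted p 0.0522 to 0.11), Mcm7 (either Tnaive or TFH or Treg or TFR array, adjusted p 0.0721 to 0.179), Cdkn1a (either TFR array, the Treg d12 array, adjusted p 0.0531 to 0.0605), Gadd45b (the Treg d12 array, adjusted p 0.0519), Ifit3 (either Treg or TFR array, the Tnaive d12 array, adjusted p 0.0598 to 0.0905), Bst2 (either Tnaive or Treg or TFR array, adjusted p 0.0806 to 0.119), and Bcl2a1d (the Treg d12 array, adjusted p 0.0504). Slide as a block ended the call for Kif23, Mcm7 and Bst2 (adjusted p 0.0571 to 0.0951), and leaving out the block of day ended it for Mcm7 (adjusted p 0.101).

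Adhesion, the cytoskeleton, secretion and purine sensing completed the lists. Of 16 integrin chains 2 were higher and 2 lower (25.0%, against 8.21% of all genes). Itgb3, the beta chain of the vitronectin receptor, read 17320 and 16703 in Tnaive, 439 and 457 in TFH, 9725 and 8815 in Treg, and 2048 and 1263 in TFR, with a difference of 2.72 (SE 0.28, adjusted p = 0.012), and Itgal, the alpha chain of LFA-1, gave -0.98 (SE 0.11, adjusted p = 0.0135). Itga11, a collagen receptor chain, was well above background in TFR alone and rose there at least 3.2-fold, with no call at a floor of 100, where it gave 1.02 (adjusted p = 0.114). Of 24 actin-binding genes 5 were higher and 2 lower (29.2%), 4 of the 7 being called in the Foxp3-negative arm alone. Flna (filamin A), named after its values were seen, fell by 1.15 in TFH, with a difference of 1.09 (SE 0.15, adjusted p = 0.0227). Cytotoxic granule and exocytosis genes had 3 higher and 3 lower members of 20. Stx11, a syntaxin of granule release, read 210 and 255 in Tnaive, 7748 and 10069 in TFH, 942 and 865 in Treg, and 4870 and 7865 in TFR, and gave -2.48 (SE 0.28, adjusted p = 0.0148). Among 13 purine genes 1 was higher and 4 were lower (38.5%), with a median difference of -0.50. P2ry14, a receptor for UDP-glucose, fell by 1.91 in TFH and was the one that was higher, by 2.34 (SE 0.27, adjusted p = 0.0148). Of 14 phosphodiesterases, which break down cyclic nucleotides, Pde8a was higher, by 1.53 (SE 0.24, adjusted p = 0.0288), but by 0.48 (adjusted p = 0.135) with the mean over all probes. This 1 call is 7.14% of the list, below the share of all genes. Of 15 neuronal and transmitter genes 2 were higher and 2 lower (26.7%). Gabrr1, a GABA receptor subunit, read 149 and 149 in Tnaive, 374 and 375 in TFH, 136 and 169 in Treg, and 152 and 154 in TFR, and its difference was -1.32 (SE 0.16, adjusted p = 0.0165). With 1 array left out, the call was lost for Itgb3 (either Tnaive or Treg array, adjusted p 0.055 to 0.0697), Itgal (either Tnaive or Treg or TFR array, adjusted p 0.0639 to 0.087), Itga11 (either Tnaive or Treg or TFR array, the TFH d12 array, adjusted p 0.0523 to 0.143), Flna (either Tnaive or Treg or TFR array, adjusted p 0.0691 to 0.119), Stx11 (either Tnaive array, the TFR d12 array, adjusted p 0.0606 to 0.0667), P2ry14 (either Treg or TFR array, adjusted p 0.071 to 0.0919), Pde8a (either Tnaive or TFH or Treg or TFR array, adjusted p 0.0531 to 0.117), and Gabrr1 (either Tnaive or TFR array, the Treg d25 array, adjusted p 0.0516 to 0.0908). The block of slide in place of day also ended the call for Itga11, Flna and Pde8a (adjusted p 0.0576 to 0.0785), and leaving out the block of day ended it for Itga11 (adjusted p 0.0561).

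**Figure D4:**
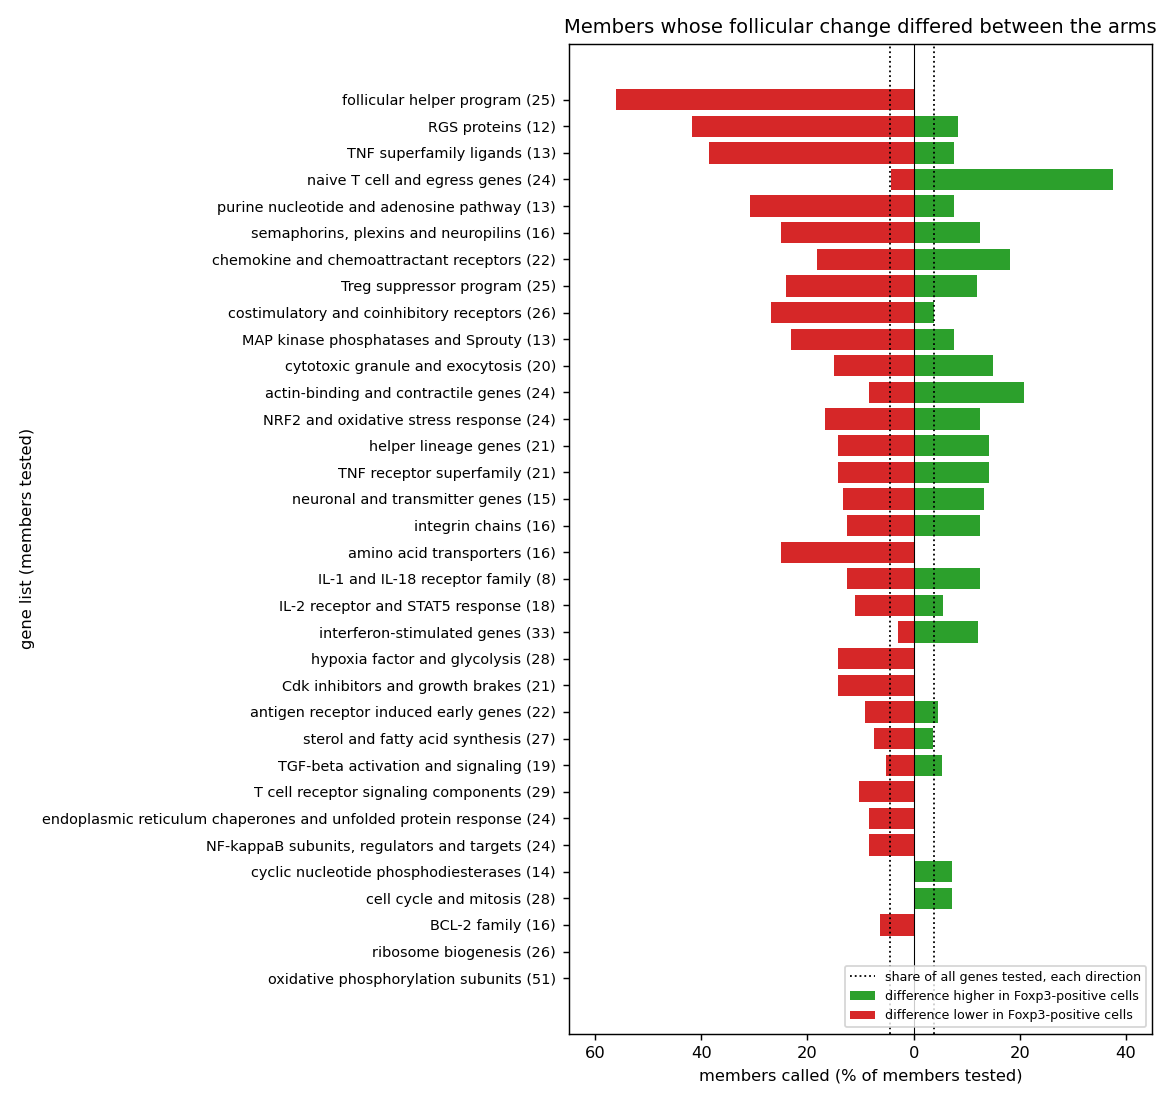
For each of 34 gene lists, the share of tested members (number in parentheses) whose difference between the changes was called lower (red, to the left) or higher (green, to the right) in the Foxp3-positive arm. Dotted lines mark the shares over all genes tested, 4.36% lower and 3.84% higher. The follicular helper program reaches 56.0% on the lower side, and no member of the ribosome biogenesis and oxidative phosphorylation lists was called.

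The same difference can be read as the gap between Foxp3-positive and Foxp3-negative cells, which is Treg minus Tnaive before and TFR minus TFH after the follicular change. Over all genes tested the median size of the gap was 0.20 before and 0.25 after. For the 1294 called genes, for which a change of the gap is what was called, it was 0.46 before and 1.00 after, and the gap was smaller after the change in 419 of them (32.4%, against 41.9% of all genes). Genes with a reduced change were the most evenly divided, 209 of 454 having a smaller gap afterwards. Of the called genes, 836 changed the sign of the gap, 321 kept it with a wider gap and 137 kept it with a narrower one. The share of sign changes over all genes tested was not counted. For the list of Treg suppressor genes the median of the signed gap went from 3.45 to 2.86, whereas for the follicular program it went from 0.041 to -1.32. Rgs1 illustrates a narrowing, Ctla4 a near closing, and Mgmt an opening of the gap, as the levels above show.

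The difference was measured on separate arrays at d12 and d25. Of 1172 genes with a difference of at least 1 (log2) at d12, 88.7% were also above 0 at d25, against 50.1% of all genes, and 50.3% reached 1 again. Of 1185 genes at or below -1 at d12, 83.2% were below 0 at d25, against 49.9%, and 56.6% reached -1 again. The median of the former went from 1.57 to 1.02 and that of the latter from -1.61 to -1.19. Across the 15762 genes the differences of the days correlated with a Pearson r of 0.69, where genes are no independent replicates and both days share the array design and the normalization. Prodh differed in size between the days, with -5.04 at d12 and -3.06 at d25, whereas Nme4 gave 3.47 at d12 and 3.72 at d25. All arrays of d12 lay on 1 slide, while at d25 the Foxp3-negative arm lay on another slide than the Foxp3-positive arm, so that each change was measured within a slide.

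**Figure D5:**
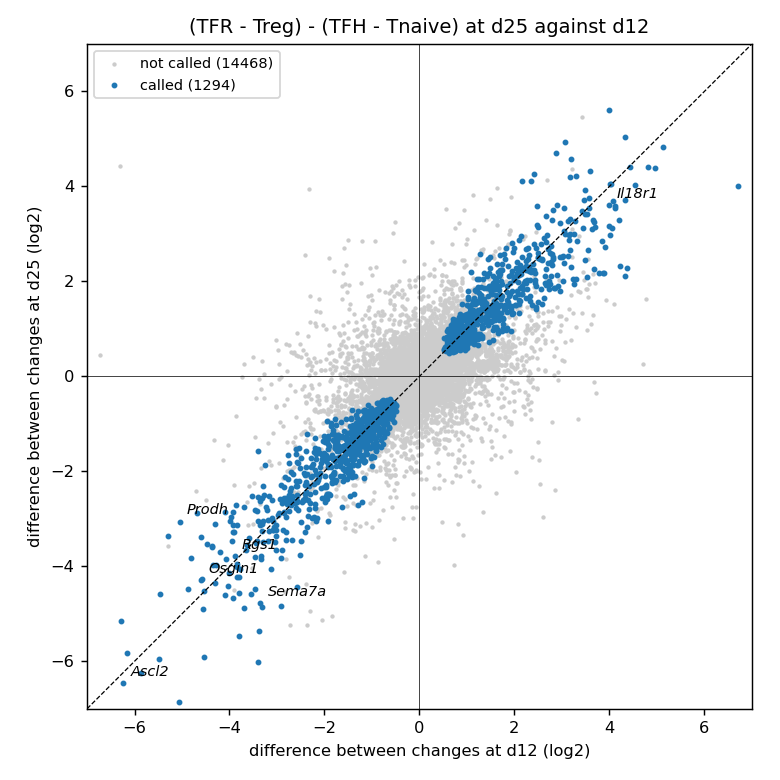
Each point is a gene, with the difference between the changes at d12 on the horizontal and at d25 on the vertical axis (log2), called genes in blue. The dashed line marks equal values. Rgs1 lies near it, with -3.89 at d12 and -3.79 at d25, and Prodh off it.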

How the data were processed

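RNA of Tnaive, TFH, Treg and TFR cells from pLN was hybridized to 8 one-color Agilent arrays, 1 per cell type at d12 and at d25 p.i., and read with Feature Extraction 10.7.3.1. The authors deposited, besides the scanner intensities, a table of normalized intensities. Its values are quantile-normalized, scaled to 1500 at the 75th percentile, and never below 20. Quantile normalization forces the same distribution on all arrays, so a shift of all genes cannot be seen, and the floor hides differences among dim genes. Each column was matched to its array (r of 0.9988 to 0.9994 with its own scanner values). From 18254 to 19867 probes per array were well above background, no probe was saturated, and the single array per cell type and day limits the precision.

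The log2 of the deposited normalized intensities was fitted with limma 3.58.1 in R 4.3.3 (lmFit and eBayes, cell type plus day, 3 residual degrees of freedom) over the 15762 genes detected well above background at both d12 and d25 in at least 1 cell type. Day was the block, since the labels give each array its day. A gene was read by its probe with the highest mean. The call was a Benjamini-Hochberg adjusted p below 0.05 over all genes. Scripts were tested on simulated data. Where all arrays of a group were not well above background, a bound on the fold was computed from the lowest signal well above background. Coordinates are of mm9, and names were looked up in RefSeq tables of another build, where 12120 of 12543 accessions matched.

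The genes named were those with the largest difference in each class and direction, up to 3 (detected on all 8 arrays), and up to 4 called members of each list, besides the 4 examples. Others are marked as chosen after their values were seen or are named as not called. Members, lists and tests were chosen with earlier results of these data known. Cells of Peyer's patches were not analysed here. Alternatives covered the probe filter and choice, background correction, scaling, floor, slide and day blocks, variance trend, size of change and leaving out each array.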

Additional observations from a re-analysis of the deposited data

Results flagged for a closer look

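The change of 1294 genes differed between Foxp3-positive and Foxp3-negative cells by the test of the difference itself. Of the genes named, 6 are listed for having moved in opposite directions in both arms with the largest differences: Il18r1 with 3.80, Tmem141 with 3.58 and Lrrc23 with 3.35 were higher, and Osgin1 with -4.45, Sema7a with -4.06 and Rgs1 with -3.84 were lower in the Foxp3-positive arm (log2). As these genes were chosen by that same difference, the values are a description. With 2 arrays per cell type, single arrays could not be tested as outliers.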

How the results depend on the processing

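The direction of the 123 named genes held in all but 2 of 2196 values over the alternatives, 1510 of which kept the call and 684 lost it. The exceptions were Slc7a10, at 0.50 with normexp background correction (adjusted p = 0.258) and 0.63 with a floor of 100 (adjusted p = 0.305). The cause was not tested. Of these genes, 25 were called in every alternative. The count of 1294 was 1337 with the authors' steps repeated from the scanner files, 1342 with 75th percentile scaling (51.3% higher against 46.8%), and 1771 with a trended variance prior.

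Without the filter on dim probes, 434 genes were called, with 65 opposite, 141 smaller, 21 larger, 129 in the Foxp3-negative and 78 in the Foxp3-positive arm alone, and 3999 for TFR minus Treg. With slide as a block in place of day, the counts in the same order were 610, 64, 235, 34, 187 and 90. With no replicate block, that is without the pairing by day, they were 766, 55, 252 and 31, with 138 in the Foxp3-positive arm alone. Normexp gave 150 larger. Requiring a size of 1 left 3073 genes for TFH minus Tnaive and 2362 for TFR minus Treg.

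Leaving out 1 array gave 252 to 1046 genes for the difference, 4243 to 6438 for TFH minus Tnaive, and 2417 to 6688 for TFR minus Treg. The classes ranged from 18 to 135 (opposite), 78 to 404 (smaller), 13 to 56 (larger), 86 to 305 (Foxp3-negative arm alone), and 45 to 160 (Foxp3-positive arm alone). The remaining single array is then assumed to vary like the other cell types. For probes near background only bounds on the fold were available.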
